A study of Mus musculus with 6 samples.

Results

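The machinery that ties synaptic vesicles to the ribbon and lets them fuse was followed through 37 genes of the 52636 in the count table, in 5 cell types of the mouse retina and in both genotypes of the study. The 37 were taken as a named list and not by a cut on their values, though with earlier results of these data known. They hold 10 genes of the active zone and ribbon, 4 of the presynaptic calcium channel and 13 of SNARE-driven fusion. A further 8 belong to the synaptic vesicle and 2 to endocytosis. All 37 had UMIs (unique molecular identifiers, 1 per captured transcript) in both photoreceptors and interneurons.

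The study sequenced single cells from whole retinas of male C57BL/6J mice aged 12 months, 3 retinas of Dram2 wt/wt mice and 3 of Dram2 ko/ko mice. The sample labels list these 6 retinas, while the library protocol in the same labels mentions 1 sample per genotype, so the SDs and p-values given here take each listed retina as a separate sample. The ko/ko mice carry a constitutive CRISPR deletion around exon 4 of Dram2, a gene of lysosome-linked autophagy, so every cell lacks that region, and the wt/wt retinas carry neither the deletion nor a treatment. Replicate 3 of each genotype came from batch 1, and replicates 1 and 2 from batch 2. The 5 types of the deposited annotation are photoreceptors, interneurons, glia, RPE cells (retinal pigment epithelium) and mesenchymal cells, and UMIs were summed here per retina and type and scaled to CPM (counts per 1000000 UMIs of that sum).

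Photoreceptors and bipolar cells release glutamate tonically, and their graded signal is carried by ribbon synapses. A ribbon is a plate built from RIBEYE, a product of the Ctbp2 gene, that holds a pool of vesicles above the release site, where an L-type calcium channel opens in darkness or on depolarisation. Amacrine cells, which share the inner retina with bipolar cells, use conventional synapses without a ribbon. Many of the proteins involved come as paralogs, and textbook accounts give the ribbon terminals their own set, with complexins 3 and 4 in place of 1 and 2 and syntaxin 3 in place of syntaxin 1.

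Photoreceptor sums held 2892834 to 4675272 UMIs per retina and interneuron sums 245755 to 1406842, while glia held 145343 to 453224, mesenchymal cells 77876 to 114066 and RPE cells 17073 to 35968. A photoreceptor had a median of 397 to 523 UMIs, an interneuron 1527 to 2275. The UMIs came from 3′ ends, so transcript length does not enter a level, but capture can differ between transcripts, and the 2 products of Ctbp2 (RIBEYE and the co-repressor CtBP2) cannot be told apart. The labels were checked against markers: the 7 rod markers summed to 45597 to 70043 CPM in photoreceptors, and the 14 bipolar markers to 8624 to 15332 CPM in interneurons. Each rod marker was also found in the other types, at 7.74% to 18.6% of its photoreceptor level in interneurons and at 7.12% to 18.2% in glia, mesenchymal and RPE cells. Dram2 itself stood at 27.2, 30.4 and 57.8 CPM in wt/wt photoreceptors and at 26.3, 33.2 and 51.3 in ko/ko; 3′ counts lie outside the deleted exon and check nothing about the labels.

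In photoreceptors the 37 members together took 9587, 9755 and 9824 CPM (wt/wt) and 10456, 10351 and 9977 CPM (ko/ko). Interneurons were higher, at 12713 to 13337 CPM, and every interneuron sum lay above every photoreceptor sum. Glia (1800 to 2647), mesenchymal cells (1485 to 2722) and RPE cells (1699 to 2683) overlapped one another and lay below both neuronal types. Of the photoreceptor sum, 33.8% ± 7.01 (SD, n = 6 retinas) was Unc119 alone, against 11.8% ± 3.73 of the interneuron sum. Unc119 encodes a lipid-binding chaperone of the photoreceptor terminal and transducin that also binds RIBEYE.

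**Figure D1:**
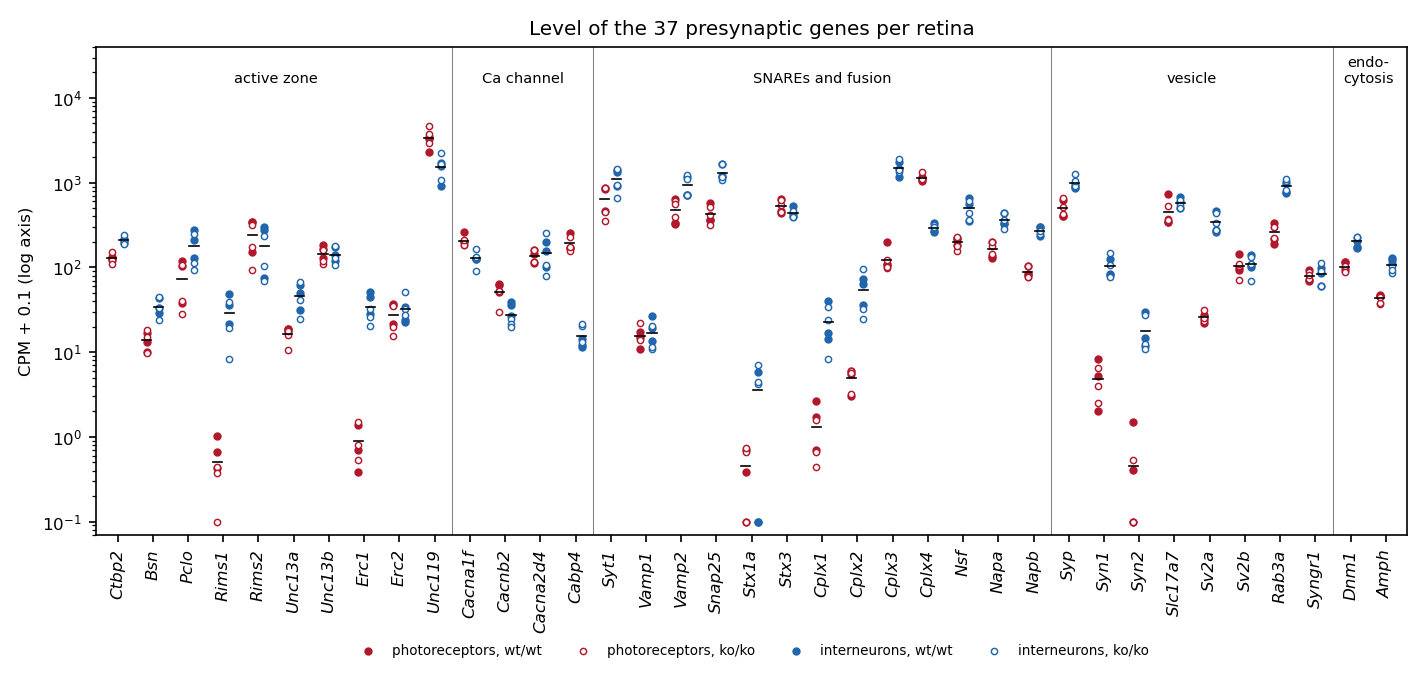
CPM of each member per retina in photoreceptors (red) and interneurons (blue), on a log axis with 0.1 CPM added, filled points for wt/wt, open points for ko/ko and a line at the mean. Unc119 is the highest member in photoreceptors, at 2318 to 4636 CPM, and Rims1, Syn2, Stx1a, Erc1 and Cplx1 lie lowest in photoreceptors.

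Upstream sequence was read for members whose RefSeq start has an entry in build GRCm38.p6, 31 of 37, to see which carry the letters TAATCC, the core bound by the photoreceptor factor CRX, on either strand in the 250 bases before the start. Of these 31 members, 4 held it (12.9%), against 1949 of 27025 genes in the table (7.21%) and 2054 of 32851 windows (6.25%). The 4 are shown because their upstream stretches are the only ones among the members with these letters. Each is given 5′ to 3′ on the gene's strand, with TAATCC or its complement GGATTA in capitals:
Unc119: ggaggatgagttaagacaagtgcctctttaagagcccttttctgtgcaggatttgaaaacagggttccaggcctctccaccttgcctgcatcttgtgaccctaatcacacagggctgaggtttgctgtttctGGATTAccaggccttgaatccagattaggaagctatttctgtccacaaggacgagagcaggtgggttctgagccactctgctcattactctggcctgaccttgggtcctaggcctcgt
Ctbp2: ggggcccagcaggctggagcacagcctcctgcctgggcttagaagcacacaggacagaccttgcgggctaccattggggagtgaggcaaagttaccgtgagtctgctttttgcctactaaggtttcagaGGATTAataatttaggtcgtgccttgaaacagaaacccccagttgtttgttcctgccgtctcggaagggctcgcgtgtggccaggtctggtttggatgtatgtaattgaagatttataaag
Sv2b: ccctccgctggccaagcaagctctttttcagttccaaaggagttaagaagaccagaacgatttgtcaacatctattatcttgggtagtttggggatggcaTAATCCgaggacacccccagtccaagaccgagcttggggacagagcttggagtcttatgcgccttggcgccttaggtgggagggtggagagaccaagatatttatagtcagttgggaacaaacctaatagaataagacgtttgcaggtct
Syp: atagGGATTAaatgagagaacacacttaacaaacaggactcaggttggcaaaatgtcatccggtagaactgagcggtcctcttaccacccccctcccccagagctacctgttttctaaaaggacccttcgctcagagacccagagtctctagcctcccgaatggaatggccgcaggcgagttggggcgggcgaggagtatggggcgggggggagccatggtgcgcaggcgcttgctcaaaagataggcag
The Unc119 stretch is chr11:78345334-78345583 on the plus strand, with the capitals starting 118 bases before the start, and the Ctbp2 stretch is chr7:133015248-133015497 on the minus strand, with the capitals at 121 bases. The Sv2b stretch is chr7:75309263-75309512 on the minus strand, with the capitals at 150 bases, and a second Sv2b start at chr7:75302610-75302859 had them at 91 bases. The Syp stretch is chrX:7638330-7638579 on the plus strand, with the capitals at 246 bases. The letters were not found before 2 further Unc119 starts, 1 of them near the annotated gene start, nor before 1 further Ctbp2 start and 2 further Sv2b starts. Of the members matched, the letters were found in 1 of 3 that were higher in photoreceptors by the rule of the next paragraph, in 0 of 13 that were lower and in 3 of 15 others. These are matches of letters, and no binding was measured.

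Photoreceptors and interneurons were set side by side in each retina, and a member was counted as higher or lower where the fitted log2 difference passed 1 and had the same sign in all 6 retinas. Since the types came from clustering the same counts, the differences are described without a p-value. By this rule 5 of the 37 were higher in photoreceptors, where 12.6% of all 15559 genes fitted were, and 14 were lower, where 16.4% were, leaving 18 in neither set. The median log2 difference of the members was -0.69, and that of all genes 0.02. The fit scales each sum by TMM factors while CPM does not, so a log2 difference sits above the ratio of the CPM values: without factors the median of all genes was -0.30 and that of the members -1.02. On that scale, added after seeing the data, 4 members were higher, where 9.53% of all genes were, and 18 lower, where 19.4% were. Cacna1f (0.77) left the first set, and Nsf (-1.29), Amph (-1.29), Napa (-1.15) and Dnm1 (-1.02) joined the second. The small differences of Unc13b, Erc2, Cacna2d4, Vamp1, Sv2b and Syngr1 changed sign between the scales, so these 6 have no direction. The 79 other presynaptic genes fitted, a wider list chosen the same way, had 6 higher and 35 lower and a median of -1.17. The 3 of that list farthest up in photoreceptors were Doc2b (2.82), Sv2c (1.81) and Stx2 (1.62), and the 2 farthest down were Rab3c (-6.02) and Syt4 (-5.97), all as log2 differences. By role, the calcium channel had 3 of 4 members higher and none lower (all but Cacna1f of these without factors as well), the active zone 1 of 10 higher and 5 lower, fusion 1 of 13 higher and 5 lower, the vesicle 0 of 8 higher and 4 lower, and endocytosis neither.

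**Figure D2:**
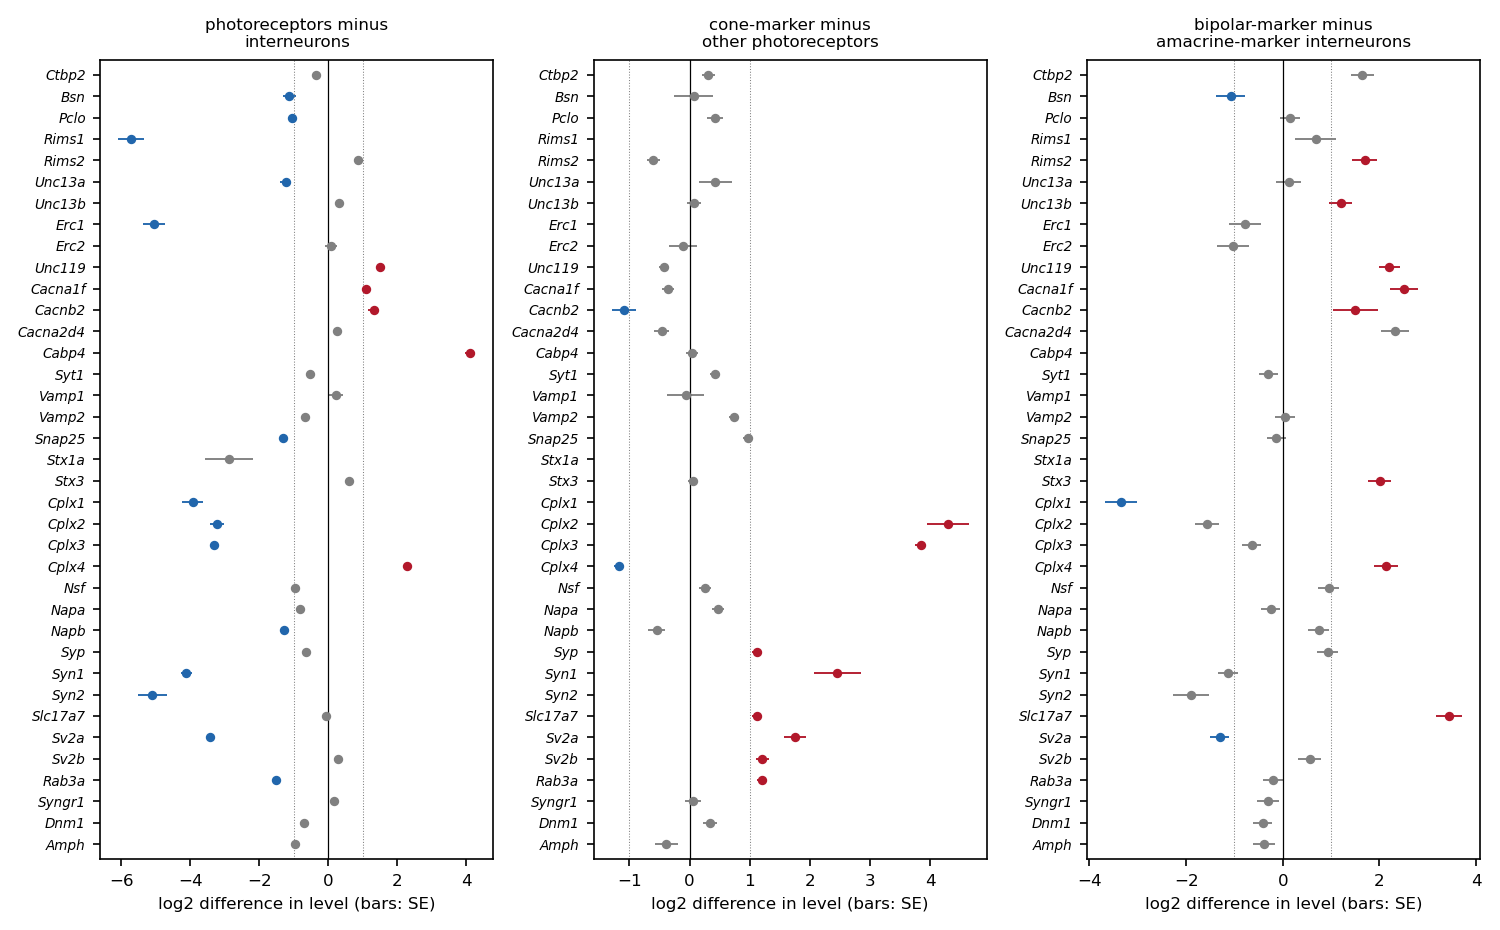
Fitted log2 differences of the members, ± SE, for photoreceptors against interneurons, cone-marker against other photoreceptors and bipolar-marker against amacrine-marker interneurons (6 retinas each). Red and blue points were counted as higher and lower, grey points as neither, and dotted lines mark -1 and 1. Cabp4 (4.12) and Cplx4 (2.29) stand farthest to the photoreceptor side, and Rims1 (-5.71), Syn2 (-5.09) and Erc1 (-5.06) farthest to the interneuron side.

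In the active zone, the large scaffolds that organise the release site were present in both types. Pclo (piccolo) ran from 28.3 to 118 CPM in photoreceptors with a median of 71.9, and from 93.6 to 275 in interneurons with a median of 171. Bsn (bassoon), which anchors the ribbon to the membrane, was lower than Pclo in each retina and type, at 9.63, 14.1 and 18 CPM (lowest, median, highest) in photoreceptors and 23.7, 33.0 and 44.8 in interneurons. The Bsn ranges did not overlap while those of Pclo did, and both members were lower in photoreceptors, with log2 differences of -1.13 for Bsn and -1.05 for Pclo. In the batch 2 retinas alone these were -0.69 and -0.87, short of the rule, and in the batch 1 retinas alone -1.63 and -1.33. Pclo made up 80.8% ± 10.5 of the UMIs of the pair in photoreceptors and 81.4% ± 9.44 in interneurons, so the 2 types differed by less than the spread between retinas. Ctbp2 stood at 109, 125 and 153 CPM in photoreceptors and at 188, 209 and 244 in interneurons, without overlap.

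RIM proteins bind Rab3 on the vesicle and recruit the calcium channel. Rims2 stood at 92.6, 247 and 348 CPM in photoreceptors and at 69.2, 170 and 303 in interneurons, with overlapping ranges. Rims1 was near absent from photoreceptors, with 8 UMIs in all 6 retinas together, against 110 UMIs in interneurons, which hold far fewer UMIs overall. From these pooled UMIs its photoreceptor level was 1.47% of the interneuron level (exact 95% interval 0.619% to 3.00%, counting error only). Within the pair, Rims2 took 99.8% ± 0.159 of the UMIs in photoreceptors and 85.4% ± 4.24 in interneurons. The Rims1 gene lies at chr1:22286251-22805994 in build GRCm38.

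ERC (ELKS) proteins bind RIM and bassoon, and they showed the same division. Erc2 differed little between the types, at 15.2, 28 and 37.2 CPM in photoreceptors and 22.7, 30 and 51.8 in interneurons. Erc1 had 16 UMIs in photoreceptors and 134 in interneurons, or 2.41% of the interneuron level (1.34% to 4.06%). Erc2 therefore took 97.2% ± 1.26 of the pair in photoreceptors and 48.9% ± 11.2 in interneurons. In interneurons the Erc2 share was 34.5%, 40.0% and 44.4% in wt/wt and 61.5%, 61.5% and 51.4% in ko/ko, without overlap and with a change of the leading paralog, though neither Erc1 (log2 difference -0.56, SE 0.35) nor Erc2 (0.49, SE 0.36) was called between genotypes there (edgeR adjusted p = 1.00 for each). The share in ko/ko replicate 1 rests on 13 UMIs of the pair, and within bipolar-marker cells the genotypes overlapped, at 34.5%, 40.6% and 47.1% in wt/wt and 61.5%, 64.3% and 41.4% in ko/ko. Of the priming factors Unc13a and Unc13b, the 2 Munc13 genes among the 37, Unc13b took 89.6% ± 1.99 in photoreceptors and 75.8% ± 6.47 in interneurons. Unc13b itself overlapped (109 to 183 against 106 to 177 CPM), and Unc13a was the member that differed, at 10.4 to 18.7 CPM in photoreceptors and 24.4 to 66.3 in interneurons, a log2 difference of -1.23.

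Unc119 stood at 2318, 3336 and 4636 CPM in photoreceptors and at 907, 1618 and 2242 in interneurons. Its log2 difference was 1.51 (SE 0.09), and it was the 1 active zone member higher in photoreceptors. The gene lies at chr11:78343482-78349164.

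The presynaptic calcium channel was the role with most members to the photoreceptor side. Cabp4, the calcium-binding protein that shifts channel opening to the voltages of a photoreceptor in the dark, stood at 157, 172 and 255 CPM in photoreceptors and at 11.4, 13.6 and 21.6 in interneurons. Its log2 difference of 4.12 (SE 0.15) was the largest towards photoreceptors. The interneuron level of Cabp4 was 8% of the photoreceptor level, within the range the rod markers kept in interneurons, and it was the 1 member of which this held there. Cacna1f, the pore-forming Cav1.4 subunit, stood at 184, 203 and 261 CPM against 91.4, 128 and 163, a log2 difference of 1.09 (SE 0.10; 0.77 without factors), and the ranges did not overlap. Cacnb2, its beta subunit, ranged from 29.7 to 62.8 CPM against 19.8 to 38.5 (log2 difference 1.31, SE 0.15). Cacna2d4, the alpha-2-delta subunit, was the exception, at 114, 130 and 160 CPM in photoreceptors and 80.0, 131 and 255 in interneurons.

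Among the fusion proteins the complexins, small clamps that bind the assembled SNARE complex, gave the widest split between paralogs. Cplx4 stood at 1039, 1105 and 1328 CPM in photoreceptors and at 259, 293 and 332 in interneurons, a log2 difference of 2.29 (SE 0.09). Cplx3, at chr9:57599992-57606281, went the other way, at 97.5, 108 and 199 CPM in photoreceptors and 1165, 1433 and 1924 in interneurons, a log2 difference of -3.32. Of all complexin UMIs Cplx4 took 89.9% ± 2.49 in photoreceptors and 15.9% ± 2.55 in interneurons, and Cplx3 took 9.59% ± 2.42 and 80.1% ± 1.76. The conventional complexins were low in both types: Cplx2 took 0.376% ± 0.0993 and 2.83% ± 1.23, and Cplx1 0.0919% ± 0.0610 and 1.17% ± 0.480. The rod markers kept 7.74% to 18.6% of their photoreceptor level in the interneuron sums. The part of rod RNA in the interneuron level of Cplx4, which was above that range, was not tested.

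The SNARE proteins themselves showed both patterns. Stx3, the plasma membrane syntaxin of ribbon synapses, stood at 442, 502 and 642 CPM in photoreceptors and at 398, 420 and 524 in interneurons. Stx1a, the syntaxin of conventional synapses, was at or under 6.86 CPM in every retina of both types, with 8 UMIs in photoreceptors and 20 in interneurons. Stx3 took 99.9% ± 0.0583 of the pair in photoreceptors and 99.2% ± 0.691 in interneurons, so syntaxin choice separated the types far less than complexin choice.

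Vamp2, the vesicle SNARE, took 96.6% ± 1.20 of its pair in photoreceptors and 98.1% ± 0.995 in interneurons, at 326 to 635 CPM and 707 to 1233 CPM. Vamp1 ranged from 10.9 to 22.1 CPM in photoreceptors and from 10.8 to 26.4 in interneurons, with nearly the same range. Snap25, the third SNARE, stood at 320, 388 and 583 CPM in photoreceptors and at 1082, 1181 and 1650 in interneurons, a log2 difference of -1.31 without overlap. Syt1, the calcium sensor of fast release, overlapped between 353, 650 and 867 CPM and 659, 1138 and 1433. The SNAP adaptors that help NSF take spent SNARE complexes apart divided as Napa 65.0% ± 2.99 in photoreceptors and 57.3% ± 3.73 in interneurons. Napb was lower in photoreceptors by the rule (log2 difference -1.28), while Napa and Nsf were not counted, though the Napa ranges (129 to 202 and 287 to 444 CPM) and the Nsf ranges (156 to 228 and 355 to 659 CPM) did not overlap either.

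On the vesicle, SV2 choice followed the type as well. Sv2a, a transporter-like glycoprotein of most vesicles, stood at 21.9, 24.9 and 31.2 CPM in photoreceptors and at 260, 308 and 460 in interneurons, a log2 difference of -3.43. Sv2b overlapped, at 70.5, 101 and 145 CPM and at 69.2, 108 and 139. The pair was 79.7% ± 3.32 Sv2b in photoreceptors and 75.2% ± 6.32 Sv2a in interneurons, so the leading paralog of these 2 changed. Sv2c, in the wider list and higher in photoreceptors (log2 difference 1.81), does not enter these shares.

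The synapsins, which tether reserve vesicles at conventional terminals and are missing from ribbon terminals in textbook accounts, were both low in photoreceptors. Syn1 stood at 1.94, 4.53 and 8.10 CPM against 77.7, 94.4 and 149 in interneurons, a log2 difference of -4.11. Syn2 had 8 UMIs in photoreceptors and 97 in interneurons, or 1.67% of the interneuron level (0.699% to 3.42%). In bipolar-marker interneurons, a class described further below whose terminals hold ribbons, Syn1 was not low. Its average log2 CPM in the edgeR fits was 6.59 there, 6.88 in all interneurons and 2.43 in photoreceptors. Rab3a, the GTPase that links the vesicle to RIM, stood at 191, 259 and 332 CPM in photoreceptors and at 752, 904 and 1119 in interneurons (log2 difference -1.51).

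The other vesicle members and those of endocytosis were in neither set on the TMM scale. Syp (synaptophysin) stood at 405, 471 and 664 CPM in photoreceptors and 859, 932 and 1261 in interneurons. Slc17a7, the vesicular glutamate transporter VGLUT1, stood at 340, 366 and 744 CPM and at 507, 572 and 674, with overlap. Syngr1, a vesicle membrane protein, overlapped as well, at 68.7 to 93.6 and 60.1 to 111 CPM. Dnm1 (88.6 to 116 against 168 to 231 CPM) and Amph (36.6 to 47.1 against 85.5 to 128 CPM), which retrieve vesicle membrane, did not overlap but missed the rule on the TMM scale, with log2 differences of -0.69 and -0.97.

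The low members can be read against interneuron markers in photoreceptors. There the 14 bipolar markers stood at a median of 1.97% of their interneuron level (1.07% to 88.6%) and the 10 amacrine markers with at least 30 interneuron UMIs at a median of 3.03% (1.36% to 14.1%). By the mean of CPM, Rims1 (1.41%) was below both medians, Syn2 (2.00%) and Erc1 (2.32%) between them, and Syn1 (4.49%), Cplx1 (5.21%), Sv2a (7.51%), Cplx3 (8.11%), Cplx2 (8.82%) and Stx1a (9.97%) above them. How much of these photoreceptor levels is free RNA or RNA of joined cells was not tested.

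**Figure D3:**
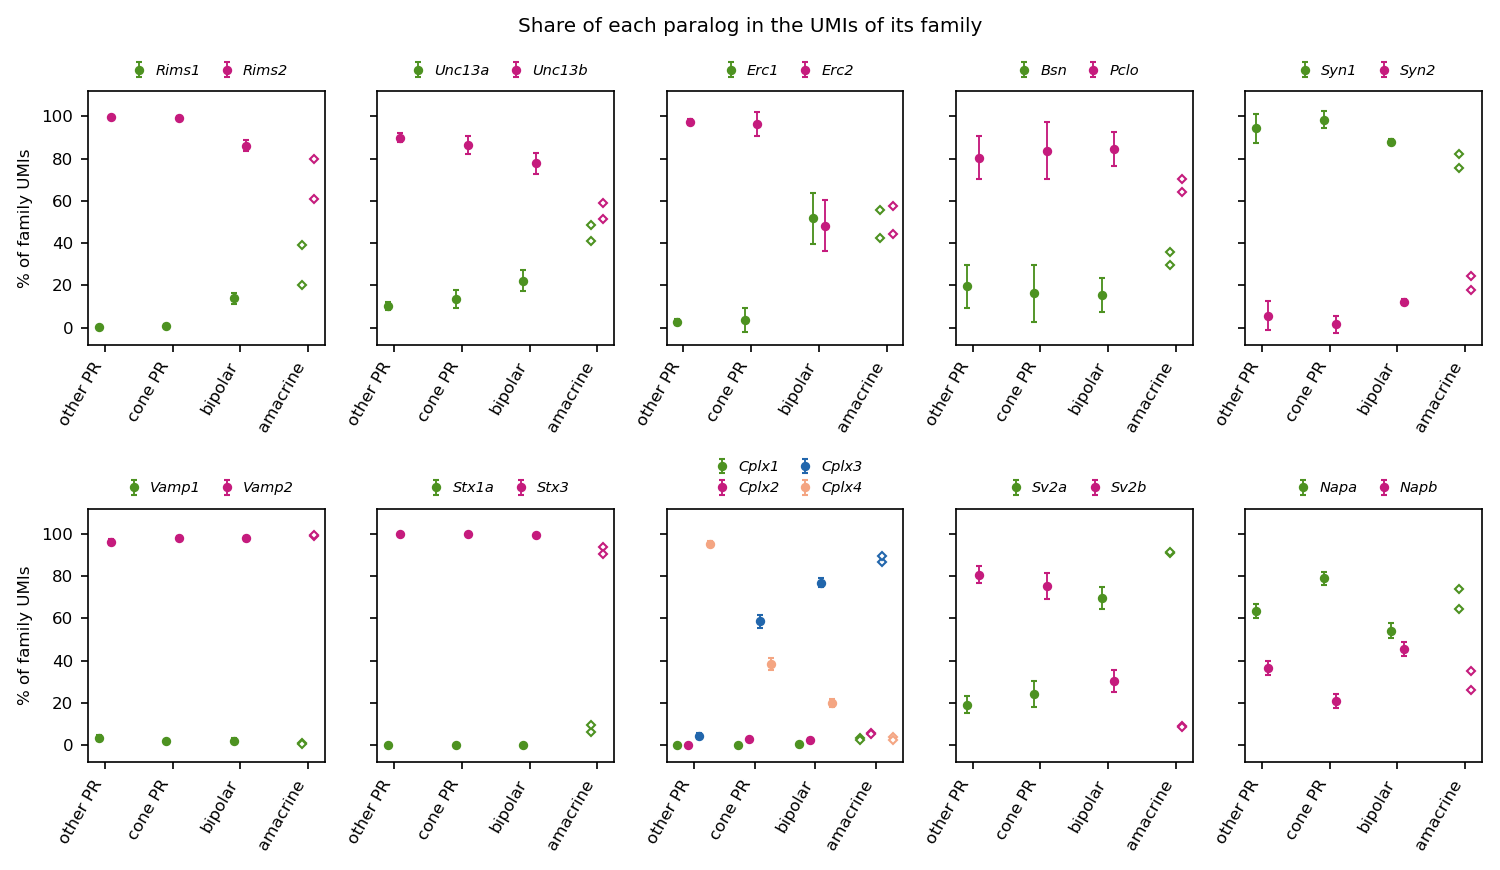
Share of each paralog in the UMIs of its family, as mean ± SD over 6 retinas for other photoreceptors, cone-marker photoreceptors and bipolar-marker interneurons, with open diamonds for amacrine-marker interneurons of the 2 replicate 3 retinas. The leading complexin is Cplx4 in other photoreceptors (95.3%) and Cplx3 in the remaining classes (58.6% or more).

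Photoreceptors were then divided by markers, since cones and rods build different terminals, the pedicle and the spherule. Cells with at least 3 UMIs of the 9 cone markers and more cone than rod UMIs were called cone-marker photoreceptors, 102 to 202 cells per retina, and the others, 5759 to 8177 per retina, other photoreceptors. Their median cell held 116 cone and 18 rod UMIs, while the other photoreceptors held 0 and 21, and 5 of the cone-marker cells were within 2 UMIs of the limit. None of the markers is a member. Cone-marker cells had a median of 1722 to 2558 UMIs and other photoreceptors 391 to 501.

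Of the 32 members that could be fitted, 8 were higher in cone-marker photoreceptors, where 7.37% of 12923 genes were, and 2 were lower, where 7.76% were. The median log2 difference of the members was 0.28 and that of all genes -0.06. The vesicle had 6 of its 7 fitted members higher, all but Syngr1. Rims1, Erc1, Stx1a, Cplx1 and Syn2 had too few UMIs to be fitted. The lower set was 1 member without wt/wt replicate 3, without ko/ko replicate 2, in the batch 1 retinas alone, in the ko/ko retinas alone and without TMM factors, where Cacnb2 stood at -0.99. Without factors 6.69% of all genes were lower, and the share in the subsets is not given.

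Cplx3 stood at 751, 882 and 950 CPM in cone-marker cells and at 42.1, 47.2 and 97.7 in other photoreceptors, a log2 difference of 3.85 (SE 0.09). Cplx2 was lower throughout but went with it, at 27.7, 41.4 and 61.0 CPM and at 0.332, 1.72 and 2.99 (log2 difference 4.29, SE 0.35). Cplx4 went the other way, at 506, 548 and 721 CPM in cone-marker cells and 1085, 1147 and 1373 in the others (log2 difference -1.17, SE 0.09). The complexins of cone-marker cells were 58.6% ± 3.18 Cplx3 and 38.5% ± 2.99 Cplx4, and those of other photoreceptors 4.46% ± 1.38 Cplx3 and 95.3% ± 1.45 Cplx4. Cone-marker cells held 8.13% ± 2.09 of all photoreceptor UMIs but 58.0% ± 5.16 of the photoreceptor UMIs of Cplx3 and 69.0% ± 17.0 of those of Cplx2. The Cplx3 share of the whole photoreceptor type, given above, is thus a sum over 2 unlike sets of cells, and rod markers stood at 9659 to 12279 CPM in cone-marker cells. The part of rod RNA in their Cplx4 was not tested.

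The 6 vesicle members were led in level by Syp and Slc17a7. Syp stood at 882, 1004 and 1364 CPM in cone-marker cells and 350, 424 and 613 in other photoreceptors, and Slc17a7 at 751, 849 and 1310 against 301, 332 and 667, neither overlapping. Rab3a (419 to 755 against 171 to 295 CPM) and Sv2b (175 to 339 against 64.2 to 119 CPM) did not overlap either. Sv2a was higher by 1.75 (log2) and Syn1 by 2.45, but Sv2b remained the main paralog of its pair in cone-marker cells, at 75.6% ± 6.18 against 80.8% ± 4.15. Snap25 (584 to 913 against 304 to 547 CPM) missed the rule with a log2 difference of 0.98 (1.09 without factors). Cacnb2 was lower, at 12.1, 26.7 and 43.7 CPM against 30.8, 55.6 and 65.3 (log2 difference -1.09, SE 0.20), while Cabp4 (162 to 296 against 156 to 249) and Stx3 (476 to 711 against 433 to 642) overlapped. Rims2 again took nearly all of its pair, 99.1% ± 1.02 in cone-marker cells.

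Interneurons were divided in the same way into bipolar-marker cells, whose terminals hold ribbons, and amacrine-marker cells, whose terminals do not. Bipolar-marker cells numbered 155 to 444 per retina. Amacrine-marker cells numbered 10, 14 and 146 (wt/wt) and 3, 19 and 131 (ko/ko), so most came from the batch 1 retinas, and 41 interneurons with equal marker UMIs were left out. Member levels and shares of amacrine-marker cells are therefore given for replicate 3 of each genotype. Of the cells in both classes, 125 were within 2 marker UMIs of the limit.

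Of 34 members fitted, 8 were higher in bipolar-marker cells, where 7.26% of 9278 genes were, and 3 were lower, where 2.25% were. The median log2 difference of the members was 0.08 and that of all genes 0.07. The 8 were Slc17a7 (3.44), Cacna1f (2.5), Unc119 (2.20), Cplx4 (2.13), Stx3 (2.00), Rims2 (1.69), Cacnb2 (1.5) and Unc13b (1.20). In the 4 batch 2 retinas the amacrine-marker sums held 0 UMIs of Cacnb2 each, 0 to 3 of Rims2, 0 to 2 of Cacna1f, 0 to 3 of Cplx4 and 0 to 5 of Slc17a7 and of Unc13b, so at that depth the sign of a single retina carries little for these members. Photoreceptor markers moved with this split: the rod list stood at 6874 to 9939 CPM in bipolar-marker and at 6598 and 5514 in the amacrine-marker cells of replicate 3, and the cone list at 2083 to 3642 against 1115 and 387. Their part in photoreceptor-rich members such as Unc119 and Cplx4 was not tested. Cacna2d4 (2.31) and Ctbp2 (1.65) passed the size but were higher in 5 of 6 retinas. Towards amacrine-marker cells, Syn2 (-1.90) and Syn1 (-1.14) passed the size but were lower in 5 of 6 retinas. Cplx2 (-1.56) and Erc2 (-1.03) also passed it but were lower in 2 and 3 retinas. The 3 lower were Cplx1 (-3.35), Sv2a (-1.31) and Bsn (-1.08). Cabp4, Vamp1 and Stx1a could not be fitted. The lower set grew to 7 members in the batch 1 retinas alone and to 5 without ko/ko replicate 1, the retina with 3 amacrine-marker cells. The 2.25% belongs to the fit of all 6 retinas, and the share of all genes in these subsets is not given, so the growth stands without a background.

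In levels, Slc17a7 stood at 570, 671 and 853 CPM in bipolar-marker cells and at 94.0 and 61.9 in the amacrine-marker cells of wt/wt and ko/ko replicate 3. Cacna1f stood at 131, 142 and 181 CPM against 31.3 and 22.1, and Stx3 at 411, 522 and 560 against 170 and 128. Cplx1 was the reverse, at 4.23, 5.24 and 11.9 CPM against 98.5 and 77.4, and Sv2a stood at 222, 253 and 307 against 777 and 745. Snap25, at 1054 to 1533 CPM, and Rab3a, at 723 to 1029, lay below those amacrine-marker values (2111 and 1901, 1184 and 1364), with fitted log2 differences of -0.13 and -0.20 over all 6 retinas.

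Paralog shares moved with this split in some families and not in others. Cplx3 led in both, at 77.0% ± 2.18 in bipolar-marker cells and at 86.7% and 89.7% in amacrine-marker cells, and Cplx4 took 20.1% ± 1.78 in the first and 3.85% and 2.64% in the second. Stx1a reached 6.17% and 9.38% of its pair in amacrine-marker cells and 0.285% ± 0.316 in bipolar-marker cells. Sv2b kept 30.5% ± 5.15 of its pair in bipolar-marker cells and 9.16% and 8.42% in amacrine-marker cells. Unc13a took 22.3% ± 5.01 in the first and 41.0% and 48.5% in the second, and Rims1 took 13.8% ± 2.62 against 39.3% and 20.0%, the latter on few UMIs. Erc1 took 51.8% ± 12.1 of its pair in bipolar-marker cells (59.3% ± 6.29 in wt/wt and 44.3% ± 12.5 in ko/ko) and 55.9% and 42.5% in the amacrine-marker cells of wt/wt and ko/ko replicate 3, against 2.77% ± 1.26 in photoreceptors.

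Glia, mesenchymal cells and RPE cells have no synaptic terminals, and the members there were compared with the rod markers. In glia 14 of 37 members were at or under the highest percent of photoreceptor level that a rod marker kept, in mesenchymal cells 10 and in RPE cells 19. Of the 15559 genes fitted in both neuronal types, 8.78%, 15.1% and 39.4% were. Above the photoreceptor level itself were 29 members in interneurons, 8 in glia, 7 in mesenchymal cells and 4 in RPE cells, where 63.0%, 45.9%, 45.1% and 27.6% of those genes were. In RPE cells 12 members had no UMI, and in mesenchymal cells 1 had none (Cplx1), where 34.2% and 11.2% of those genes had none. In glia, Vamp1 stood at 26.8, 45.2 and 53.6 CPM, above its photoreceptor range of 10.9 to 22.1 in every retina, and Amph at 30.4, 40.7 and 57.3 CPM overlapped its photoreceptor range of 36.6 to 47.1.

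Some members varied widely between retinas of 1 genotype. Pclo in photoreceptors stood at 104, 118 and 38.3 CPM in wt/wt replicates 1 to 3 and at 28.3, 106 and 39.6 in ko/ko. The low values are both batch 1 retinas and ko/ko replicate 1, a batch 2 retina. Rims2 was low in the same 3 retinas, at 348, 344 and 151 CPM and at 92.6, 320 and 174, and so was Syt1, at 861, 837 and 462 and at 353, 867 and 455. Vamp2 had the reverse, at 334, 326 and 635 CPM in wt/wt and 604, 389 and 561 in ko/ko, with the same 3 retinas now high. The share of mitochondrial UMIs was 3.22% and 2.75% in the batch 1 retinas and 0.405% to 0.720% in the others, ko/ko replicate 1 included, and its part in these values was not tested.

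**Figure D4:**
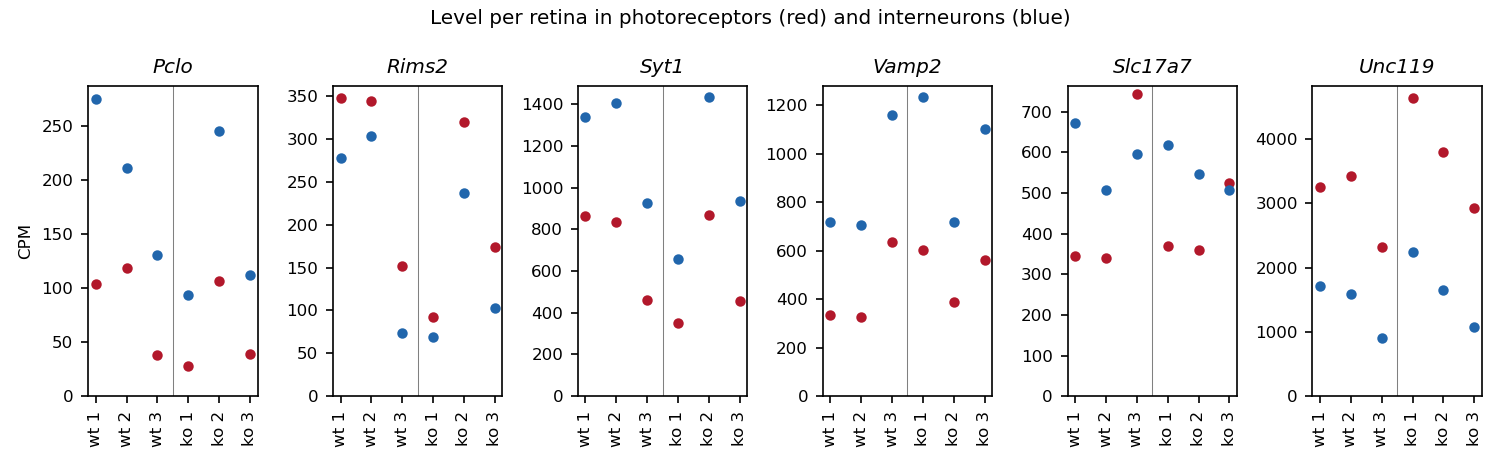
CPM of Pclo, Rims2, Syt1, Vamp2, Slc17a7 and Unc119 in each of the 6 retinas, red for photoreceptors and blue for interneurons. Pclo, Rims2 and Syt1 are low in photoreceptors of both replicate 3 retinas and of ko/ko replicate 1, where Vamp2 is high.

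The genotypes were compared within each type and marker class with edgeR's quasi-likelihood test on the summed UMIs, adjusted over all genes tested. The p-values measure the spread among the listed retinas, which were taken as separate samples despite the doubt in the labels given above. In photoreceptors 32 members were tested, in interneurons 33, in glia 15, in mesenchymal cells 4, in RPE cells 1, in cone-marker photoreceptors 26, in bipolar-marker interneurons 31 and in amacrine-marker interneurons 11. No member was called in any of these 8 classes, and 0% of all genes were called in each (of 13053, 7698, 4130, 1717, 308, 4957, 7269 and 733 tested, in the same order). These fits took genotype alone, without a batch term. DESeq2 and limma-voom, as run here, also called 0 members in each class. With batch as a covariate or a replicate block, 1 member (Syngr1) was called in mesenchymal cells, where 31 and 32 genes were called. Both alternatives called 0 members in the other classes. The study's own limma-voom comparison did list 2 members as significant in mesenchymal cells, Syngr1 (lower in ko/ko) and Unc119 (higher in ko/ko). At an unadjusted p under 0.05 edgeR had 0, 0, 2, 2, 0, 1, 0 and 0 members, DESeq2 0, 0, 1, 2, 0, 0, 0 and 0, and limma-voom 0, 0, 2, 2, 0, 0, 0 and 0. Of all genes, 0.835%, 1.12%, 1.23%, 8.74%, 3.57%, 1.33%, 1.35% and 0.955% were under that p by edgeR.

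Fitted log2 differences of ko/ko against wt/wt ran from -0.55 to 0.36 over the 32 members in photoreceptors, with a median of -0.06 beside -0.01 for all genes and a median SE of 0.25. In interneurons they ran from -0.61 to 0.49, with a median of -0.03 beside -0.01. The member with the smallest p in photoreceptors was Unc119, at 3251, 3422 and 2318 CPM in wt/wt and 4636, 3800.5 and 2925 in ko/ko, a log2 difference of 0.36 (SE 0.26, edgeR adjusted p = 0.998). The groups overlapped. In interneurons it was Cacnb2, with a log2 difference of -0.59 (SE 0.33, edgeR adjusted p = 1.00).

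**Figure D5:**
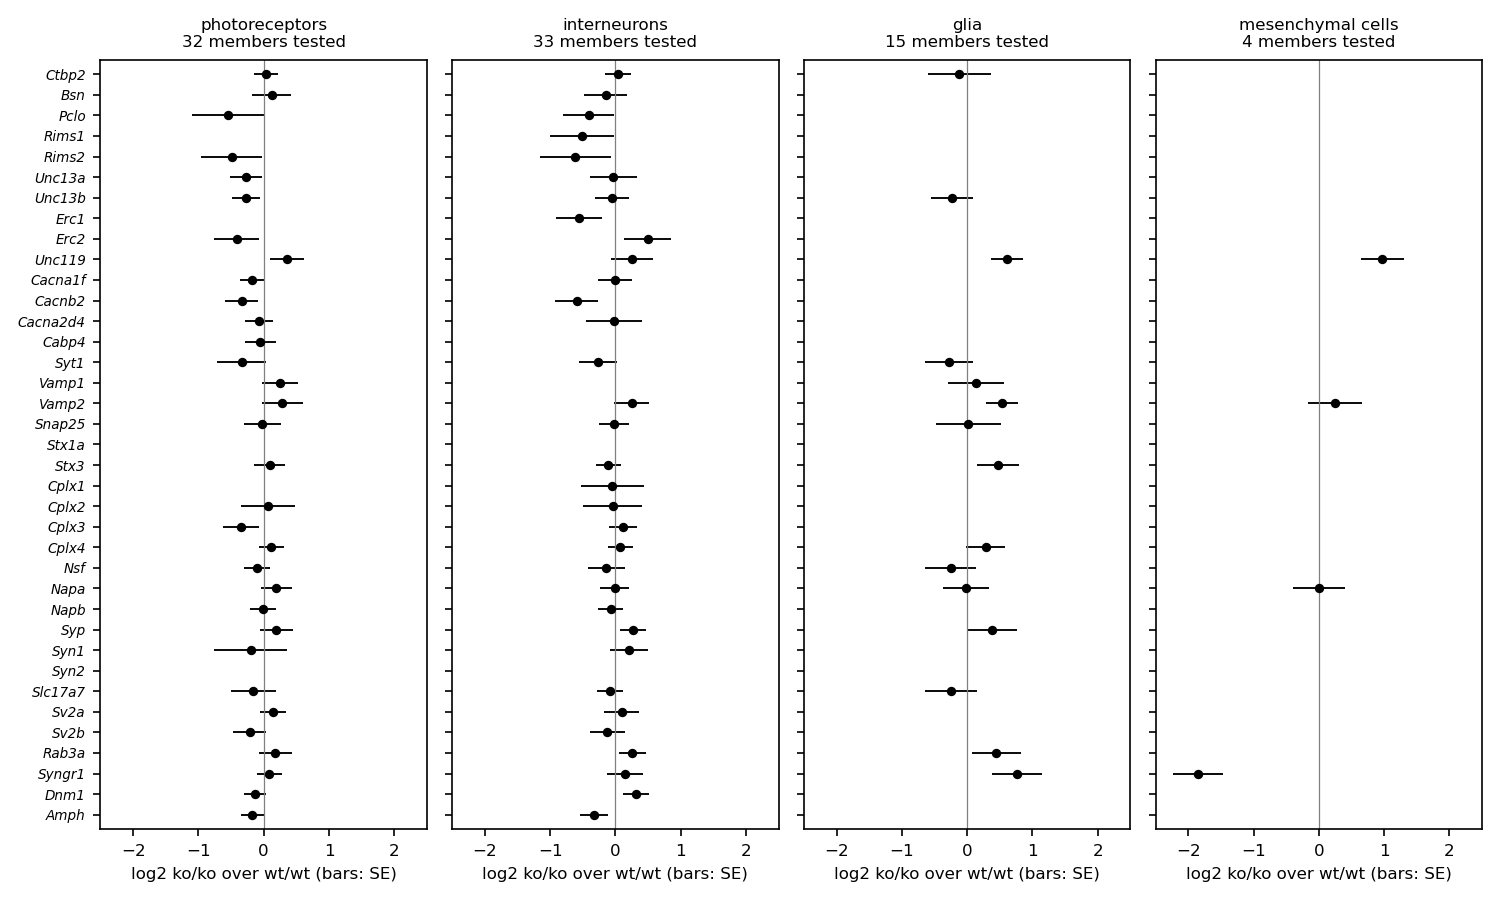
Fitted log2 differences of ko/ko against wt/wt, ± SE, for the members tested in photoreceptors, interneurons, glia and mesenchymal cells (3 retinas of each genotype). In photoreceptors the members lie between -0.55 and 0.36 and in interneurons between -0.61 and 0.49, Syngr1 in mesenchymal cells lies at -1.85, and none passed an adjusted p of 0.05.

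In glia the member with the smallest p was Unc119, with a log2 difference of 0.61 (SE 0.25, edgeR adjusted p = 1.00). In cone-marker photoreceptors it was Amph, at -0.89 (SE 0.38, edgeR adjusted p = 0.999). In bipolar-marker interneurons it was Syn1, at 0.44 (SE 0.26, edgeR adjusted p = 1.00). In amacrine-marker interneurons it was Rab3a, at 0.30 (SE 0.29, edgeR adjusted p = 0.999). Unc119 in glia stood at 435, 475 and 437 CPM in wt/wt and 938, 571 and 624 in ko/ko, without overlap. The summed rod markers in those glia stood at 4254, 5381 and 8702 CPM and at 10455, 5945 and 9038, and their part in the Unc119 values was not tested. In RPE cells Unc119, the 1 member tested, differed by -0.03 (SE 0.39).

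In mesenchymal cells Syngr1 (synaptogyrin 1, a vesicle membrane protein, at chr15:80091334-80119501) stood at 209, 192 and 243 CPM in wt/wt and 89.6, 43.8 and 51.4 in ko/ko. The groups did not overlap, and the log2 difference was -1.85 (SE 0.39, unadjusted p = 0.000568, edgeR adjusted p = 0.325). With batch as a covariate it was -1.87 with an edgeR adjusted p of 0.0255. Microglial markers moved with it, at 21329, 20726 and 16013 CPM in wt/wt mesenchymal cells and 8128, 13615 and 4379 in ko/ko. Of the 73 Syngr1 UMIs, 71 lay in cells with at least 2 microglial marker UMIs, which were 57 of 125 mesenchymal cells in wt/wt (45.6%) and 31 of 121 in ko/ko (25.6%). Within those cells Syngr1 stood at 422, 397 and 793 CPM in wt/wt and 429, 138 and 444 in ko/ko, with overlap. Pooled over retinas, it stood there at 502 CPM in wt/wt (55 UMIs) and 260 CPM in ko/ko (16 UMIs). The part of the microglial cells in the Syngr1 difference was not tested. Unc119 in mesenchymal cells stood at 245, 363 and 298 CPM in wt/wt and 666, 421 and 758 in ko/ko, a log2 difference of 0.97 (SE 0.33, edgeR adjusted p = 0.484). Rod markers there stood at 4307 to 6782 CPM in wt/wt and 6128 to 9233 in ko/ko, and endothelial markers at 4565 to 8823 and 8434 to 11608. In cells with at least 2 microglial marker UMIs Unc119 stood at 248, 444 and 453 CPM in wt/wt and 797, 332 and 999 in ko/ko, with overlap. In cells with fewer it stood at 243, 295 and 234 against 631, 462 and 726, without overlap. The part of these markers in the Unc119 values was not tested.

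Whether the genotype difference was itself different between photoreceptors and interneurons was tested as an interaction over all 37 members. None was called, where 0.00643% of 15559 genes were (1 gene). At an unadjusted p under 0.05 edgeR had 3 members, Dnm1 (dynamin 1, which pinches off vesicles, -0.45, SE 0.19), Cplx3 (-0.42, SE 0.18) and Erc2 (-0.76, SE 0.35), all with an adjusted p of 1, where 428 of 15559 genes (2.75%) were under that p. Paralog shares were not tested by genotype. The shares of wt/wt and ko/ko retinas did not overlap for 2 of 22 paralogs in each type, complementary shares of 1 family each, where the levels of 5.95% (photoreceptors) and 6.92% (interneurons) of 15559 genes did not overlap: Erc1 and Erc2 in interneurons, given above, and Cplx3 (9.24%, 9.03% and 14.4% against 8.08%, 8.42% and 8.32%) and Cplx4 in photoreceptors. Cone-marker cells moved with the complexin shares, holding 8.19%, 8.47% and 11.9% of photoreceptor UMIs in wt/wt and 5.74%, 7.64% and 6.85% in ko/ko. Within other photoreceptors the Cplx3 shares overlapped, at 3.75%, 3.52% and 7.21% in wt/wt and 3.97%, 3.96% and 4.35% in ko/ko.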

How the data were processed

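Retinas were dissociated with papain and single cells were captured with the 10x Genomics 3′ v2 kit. The deposited file holds raw UMI counts per gene and cell, made by the authors with Cell Ranger (version 3.1.0 and build GRCm38 in the submitters' processing notes) from exonic reads, with the authors' cell types from clustering after batch integration. Here counts of 45746 typed cells were summed per retina and type, and 629 cells without a type were left out. Doublets were not removed. Cell names are unique over libraries (46375), so shared barcodes could not be counted.

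The 37 members, the marker and presynaptic lists and the rules were chosen with earlier results of these data known. Genes were named by GENCODE M21 symbols (52403 of 52636 IDs). Values per retina are given for the 10 paralog families and the 5 other members highest in photoreceptors, the other members by range, 3 other presynaptic genes in each direction (1 of them is not reported here), and the member with the smallest p per class. The calcium channel and Cabp genes of the wider presynaptic list are given by range. Fits used edgeR 4.0.16 (TMM, quasi-likelihood, Benjamini-Hochberg adjustment over all genes) in R 4.3.3, for the contrasts of types with the retina as a block. DESeq2 1.42.0 and limma 3.58.1 (voom) were alternatives. SE of a difference was taken from the F statistic. Shares used Python 3.11.15 with numpy 2.4.6, pandas 2.3.3 and scipy 1.17.1. The fits were tested on simulated data with known changes. Intervals cover counting error only.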

Additional observations from a re-analysis of the deposited data

Results flagged for a closer look

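In the 629 cells without a type, the 37 members summed to a mean of 10534 CPM in the ko/ko retinas (11202, 10582 and 9817) and 9581 CPM in the wt/wt retinas (9350, 9801 and 9592). These cells enter no comparison of the report, and the value is listed because the ko/ko sums lay above each wt/wt sum. The same held in photoreceptors (9977 to 10456 against 9587 to 9824) and interneurons (13090 to 13337 against 12713 to 13024), but not in glia, mesenchymal or RPE cells. Rod markers in the untyped cells stood at 52070 to 76652 CPM, beside 45597 to 70043 in photoreceptors. Without Unc119 the sums of the untyped cells overlapped, at 5952, 6384 and 6992 CPM in ko/ko and 5562, 6316 and 7222 in wt/wt. These differences were not tested. With 3 retinas a genotype, single retinas were not tested as outliers.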

How the results depend on the processing

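The alternatives were DESeq2, limma-voom, other scaling, no filter, stricter cells, each retina left out, batch or replicate block, a threshold of 2, and single batches and genotypes. The batch 1 and ko/ko retinas alone, the fits without TMM factors and the split of the mesenchymal cells were chosen after seeing the data. Of the counts of members, 188 alternatives kept their call, 4 were stronger and 11 weaker. Of the single values, 1543 kept their call or moved by less than the spread between retinas and 70 moved by more, 26 of these without TMM factors, 18 in the batch 1 retinas alone and 11 in stricter cells. Members called between genotypes in mesenchymal cells numbered 0 in the report's design and 1 with batch as a covariate and 1 with the replicate block (Syngr1, log2 difference -1.87 in both, edgeR adjusted p = 0.0255 and 0.0271, with 31 and 32 genes called). With a threshold of 2 on the log2 scale, photoreceptors against interneurons had 2 members higher and 8 lower, cone-marker against other photoreceptors 3 and 0, and bipolar-marker against amacrine-marker interneurons 5 and 1. The share of all genes is not given at this threshold or in the subsets that follow, so these counts stand without a background. In the batch 1 retinas alone the last 2 contrasts had 1 and 7 members lower, and in the ko/ko retinas alone the cone-marker contrast had 1, as it did without TMM factors. With 1 retina left out, members higher and lower ranged from 5 to 6 and 12 to 15 in photoreceptors against interneurons, 8 to 9 and 1 to 2 in cone-marker against other photoreceptors, and 8 to 11 and 3 to 5 in bipolar-marker against amacrine-marker interneurons. All genotype and interaction counts stayed at 0 there. Unc119 in RPE cells, at -0.03, ran from -0.28 to 0.29 and turned positive without wt/wt replicate 1 (0.14), wt/wt replicate 2 (0.06) and ko/ko replicate 3 (0.29). When cells under 500 UMIs or over 10% mitochondrial UMIs were dropped, Cplx3 took 12.5% ± 2.11 and Cplx4 86.9% ± 2.13 of the complexins in photoreceptors. Correlations of same-numbered retinas were -0.067, 0.54 and 0.52 in photoreceptors and 0.10, 0.34 and 0.58 in interneurons. The numbers did not pair replicates 1 and 2: wt/wt 1 with ko/ko 2 had 0.50 and 0.33. The replicate 3 retinas, both of batch 1, did go together. With ko/ko 1 and 2, wt/wt 3 had 0.074 and -0.65 in photoreceptors and -0.093 and -0.51 in interneurons. The replicate block changed no other call of members. RPE cells and amacrine-marker cells outside batch 1 limit depth most.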
